A study of Mus musculus with 18 samples.

Results

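The response of mouse embryonic fibroblasts to amino acid deprivation was compared between cells that lack Cebpg, the gene of the transcription factor C/EBPγ, and wild-type (WT) cells. The comparison uses 12 of the 18 arrays of the study, those of the groups WT and Cebpg-/- in normal medium (called REG in the labels) and in amino acid deprivation (AAD) medium, with 3 arrays in each group. The other 6 arrays, from Atf4-/- cells in the same 2 media, add to the estimate of the spread and are given beside the values where stated. The fibroblasts of all genotypes were isolated from embryos at E13.5 and passaged 2 to 3 times, plated for 24 h, and then kept for 3 h in fresh normal medium or in a Krebs-Ringer buffer with supplements, the AAD medium. Nothing but the genotype and the medium differs between the groups in the labels. The promoter, exon or line history of the deletions, the number of embryos, whether embryos were pooled and the make-up of the supplements are not given in the sources used here. P-values therefore measure the spread between these samples, which may be technical.

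RNA was hybridised to Affymetrix GeneChip arrays of the mouse genome, and all values are log2 probe set values. A response is the value in AAD medium minus the value in normal medium, taken within arrays of the same genotype and replicate number, so that each genotype gives 3 pair responses. The difference is the response of Cebpg-/- minus the response of WT, and it is negative where Cebpg-/- cells responded less upward or more downward. Errors of responses and differences are standard errors from limma over 3 pairs per genotype. Calls of single genes need an adjusted p below 0.05 over the 13728 genes tested. Genes whose highest group mean lay under 4.65 were not tested, and a level under 4.65 is close to the array's floor, where the size of a change is uncertain.

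Uncharged tRNA activates the kinase GCN2, which phosphorylates the initiation factor eIF2. General translation then slows while the mRNA of ATF4, a basic leucine zipper (bZIP) factor, is translated more, and ATF4 raises genes for amino acid uptake, amino acid synthesis and stress handling. ATF4 binds DNA as a dimer with another bZIP protein, and C/EBPγ, a small C/EBP family member without a strong activation domain of its own, is one of its partners. Such dimers read a composite C/EBP-ATF response element, in which one part resembles a C/EBP site and the other an ATF site.

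Without C/EBPγ, 99 genes responded lower than in WT (0.721% of the genes tested) and 90 responded higher (0.656%), 1.38% in all. Among the genes with a lower response, 90 of the 99 rose in WT, 2 fell and 7 were not called there, where 19.6% of the genes tested rose and 19.6% fell. Of those 90, 60 also rose in Cebpg-/- cells, 26 were not called and 4 fell, where 17.2% of the genes tested rose and 16.8% fell. Among the 90 genes with a higher response, 62 fell in WT, 16 rose and 12 were not called. Of those 62, 33 also fell in Cebpg-/-, 21 were not called and 8 rose. The WT response is a term of the difference, so the choice of genes itself favours such signs, and nothing is read from these counts. The median size of the difference was 0.57 among the genes called lower and 0.61 among those called higher, while the median difference of all genes tested was -0.001. Differences of at least 2-fold were found for 7 genes with a lower response (0.051% of the genes tested) and for 14 with a higher response (0.102%), of which 1 has no proper name. The 7 were Fgf21, Trib3, Slc7a11, Apobr, Glcci1, Nr4a1 and Crebrf, and the 13 others were Clec4e, Ccl3, Rgs1, Sema7a, Cxcl2, Inka1, Akr1c14, Neat1, Cd83, Serpinb2, Hivep3, Il7r and Ccrl2.

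In all 189 called genes the 3 pair responses of one genotype lay wholly beyond the 3 of the other. The calls were made from these same pair responses, so this follows largely from the selection and is no separate support. Over all genes tested, the Cebpg-/- pair responses lay wholly below those of WT for 1207 genes (8.79%) and wholly above them for 1311 (9.55%). The fit treats the replicate number within each genotype as a block: without the block, 20 genes were called lower and 11 higher, 64.5% of the calls lower against 52.4% with it. Centring each array on its median gave 60.3% lower. Leaving out 1 replicate number of 1 genotype gave 40 to 80 genes lower and 31 to 69 higher. The counts were 49 and 51 without WT replicate 2, 43 and 31 without WT replicate 3, 57 and 59 without Cebpg-/- replicate 1, 40 and 38 without Cebpg-/- replicate 2, and 80 and 45 without Cebpg-/- replicate 3. Of 60 called genes followed through the alternatives, 12 stayed called in all 15: Fgf21, Trib3, Slc7a11, Jdp2, Klf4, Klf10 and Nr4a1 lower, and Clec4e, Ccl3, Sema7a, Akr1c14 and Il7r higher. All WT arrays of Akr1c14 and Il7r lay under 4.65, so these genes passed the filter only through a knockout group.

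**Figure D1:**
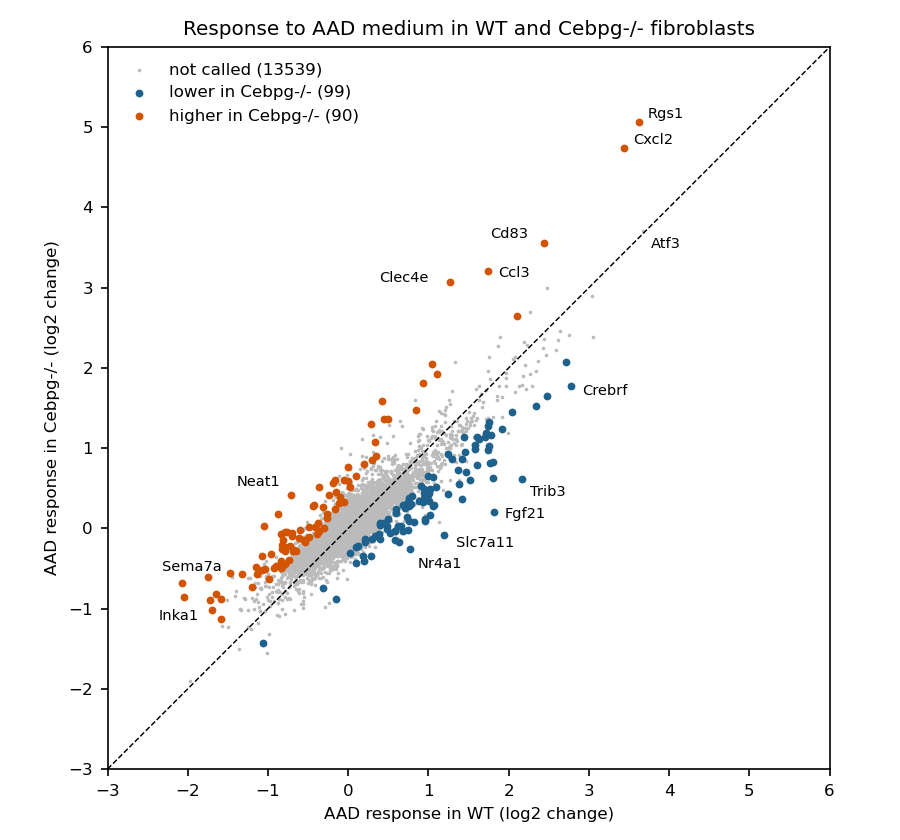
Response to AAD medium (log2 change) in WT cells on the x axis and in Cebpg-/- cells on the y axis, 1 point per gene tested, with the line of equal responses dashed. The 99 genes called lower lie below the line and the 90 called higher above it. Atf3 lies on the line.

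Several arrays differed in ways that the group labels do not name. Fibroblast markers were high in all 4 groups, with mean levels of the 14 fibroblast markers between 9.72 and 10.72 on the 12 arrays, although 9 of the 14 were lower in Cebpg-/- than in WT in normal medium (11.1% of the genes tested were lower there). Of 18 macrophage markers, 15 were higher in Cebpg-/- than in WT in normal medium (12.3% of the genes tested were higher there) and none lower. Xist, the RNA that silences an X chromosome in female cells, lay between 5.28 and 5.83 on the 6 WT arrays and between 11.73 and 12.15 on the 6 Cebpg-/- arrays, and the Y-linked gene Kdm5d lay between 6.82 and 7.49 in WT and between 2.71 and 2.88 in Cebpg-/-, so the sex pattern and the Cebpg genotype cannot be told apart. The Atf4-/- group was mixed: Xist stood at 5.42 to 5.45 in replicate 1 and at 12.14 to 12.31 in replicates 2 and 3. The pairs within a genotype each keep 1 pattern, while the comparison of the 2 knockouts sets 3 pairs of one pattern against a mixed group. On the array of Cebpg-/- replicate 2 in AAD medium the epithelial keratin gene Krt8 stood at 8.08, against 5.09 to 6.18 on the other 11 arrays, and the tight junction gene Cldn4 at 7.31, against 4.29 to 5.18. None of the 6 epithelial markers tested had a called difference of response (1.38% of all genes tested had).

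Promoters of the genes with a lower response were searched for the core of the C/EBP-ATF response element, written TGATGNAA, on both strands of the RefSeq promoter windows of GRCm38.p6, which run from 250 bases before to 50 bases after each annotated start. The exact form TGATGCAA is contained in it. Windows were found for 85 of the 99 genes called lower and 64 of the 90 called higher. The core occurred in 9 of 124 windows of the genes called lower (7.26%), in 2 of 88 of those called higher (2.27%) and in 321 of 14053 of all genes tested (2.28%), or 3.97% of all windows in the table. TGATGCAA occurred in 4.03%, 0 of 88 and 0.591% of them. A match of letters is no measure of binding, and the counts are small. The windows around the match are shown for 3 genes with a lower response, Slc7a11 (an amino acid transporter), Fgf21 (a hormone) and Jdp2 (a bZIP repressor), and for 2 stress genes that rose in both genotypes without a called difference, Atf3 and Chac1, because the same 8 letters stand in both kinds. Capitals mark the match, in the direction of the gene.
Slc7a11: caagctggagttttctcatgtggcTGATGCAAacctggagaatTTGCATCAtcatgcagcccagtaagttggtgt
Fgf21: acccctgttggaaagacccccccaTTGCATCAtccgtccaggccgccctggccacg
Jdp2: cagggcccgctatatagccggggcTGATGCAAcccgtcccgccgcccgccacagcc
Atf3: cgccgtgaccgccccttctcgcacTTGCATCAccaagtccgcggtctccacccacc
Chac1: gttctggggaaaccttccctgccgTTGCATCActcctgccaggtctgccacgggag
The Slc7a11 window is chr3:50443629-50443703 on the minus strand and holds the element in both directions, beginning 66 and 47 bases before the start. The Fgf21 window (chr7:45615598-45615653, minus strand) holds it 139 bases before the start and the Jdp2 window (chr12:85599359-85599414, plus strand) 33 bases before. In Atf3 (chr1:191183412-191183467, minus strand) it begins 110 bases before the start and in Chac1 (chr2:119351025-119351080, plus strand) 193 bases before. All 5 windows lie upstream of the annotated start. Of the genes called lower, Arhgef2, Arl14ep, Bdnf, Herpud1, Slc1a4 and Trib3 also hold the core. That of Slc1a4 spans the start, and those of Arhgef2, Bdnf and Trib3 lie after it. Asns, Got1, Nupr1, Slc7a7 and Vldlr hold it too, without a called difference.

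The targeted gene and its bZIP relatives came first. Cebpg itself rose in WT and far less in Cebpg-/- cells. In WT cells the arrays read 9.35, 9.17 and 9.27 for Cebpg in normal medium and 10.30, 10.22 and 10.46 in AAD medium, and in Cebpg-/- cells they read 9.30, 9.26 and 9.38 and 9.52, 9.43 and 9.82. The WT and Cebpg-/- arrays overlapped in normal medium, and in AAD medium every WT array was above every Cebpg-/- array. The response was 1.06 ± 0.06 in WT and 0.28 ± 0.06 in Cebpg-/-, a difference of -0.79 ± 0.09 (adjusted p = 0.0032, or 0.0507 without the block). The 2 other Cebpg probe sets gave differences of -0.55 ± 0.12 and -0.66 ± 0.15. All 3 probe sets were measured in Cebpg-/- cells, and whether they lie in the deleted part was not known, so they do not check the deletion.

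Atf4 mRNA rose in both genotypes. The 3 WT arrays gave Atf4 values of 12.12, 12.15 and 12.02 in normal medium and 12.81, 12.80 and 12.92 in AAD medium, and the 3 Cebpg-/- arrays gave 12.33, 12.28 and 12.31 and 12.70, 12.64 and 12.72. Each Cebpg-/- pair rose less than each WT pair, by 0.37, 0.37 and 0.41 against 0.69, 0.66 and 0.90, but the difference of -0.37 ± 0.08 did not pass (adjusted p = 0.0511, 95% interval -0.54 to -0.20), though it was called in 4 of 15 alternatives. Jdp2, a repressor of the AP-1 family that can pair with ATF and C/EBP proteins, rose in WT only by the calls of each genotype. For Jdp2 the WT values were 10.28, 10.35 and 10.37 in normal medium and 10.98, 11.11 and 11.17 in AAD medium, against 10.08, 9.97 and 10.08 and 10.19, 10.02 and 10.20 on the Cebpg-/- arrays. The Jdp2 groups did not overlap in either medium, and its response differed by -0.66 ± 0.06 (adjusted p = 0.00115). A second, dimmer Jdp2 probe set gave -0.10 ± 0.08. For Nfil3, a repressor linked to circadian and immune gene control, the 3 pair responses were 1.45, 1.53 and 1.75 in WT and 1.06, 0.91 and 1.15 in Cebpg-/-. Both genotypes raised Nfil3, and the response differed by -0.53 ± 0.09 (adjusted p = 0.0237, or 0.0856 without the block). Nfil3 was called in 9 of 15 alternatives and not without WT replicate 2 or 3 or Cebpg-/- replicate 1 or 2, nor with the 12 arrays alone (adjusted p up to 0.0902).

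Atf3, the stress-induced ATF gene with the largest rise among the bZIP genes, had no called difference. Atf3 read 7.19, 7.15 and 6.86 on the 3 WT arrays in normal medium and 10.78, 10.74 and 10.69 in AAD medium, while the Cebpg-/- arrays read 7.27, 7.11 and 7.36 and 11.05, 10.93 and 10.87. The Cebpg-/- arrays in AAD medium lay above the WT arrays, and the response was 3.67 ± 0.10 in WT and 3.70 ± 0.10 in Cebpg-/-. The difference was 0.03 ± 0.15 (adjusted p = 0.954), with a 95% interval of -0.29 to 0.36, whose lower end is nearer 0 than the difference of Cebpg. Ddit3, which encodes CHOP, a C/EBP family factor tied to cell death, gave pair responses of 2.55, 2.47 and 2.74 in WT and 2.07, 2.12 and 2.48 in Cebpg-/-. The Ddit3 difference of -0.36 ± 0.11 did not pass (adjusted p = 0.173, 95% interval -0.61 to -0.11), but was called in 2 of 15 alternatives. Over the alternatives its estimate ran from -0.49 to 0.12, so its sign was not stable. Cebpb (-0.18 ± 0.09), Crem (-0.31 ± 0.10) and Cebpd (0.31 ± 0.11) did not pass either. In all, 3 of 21 C/EBP and ATF factors tested had a lower response (0.721% of all genes tested), none a higher one, and 18 were not called, at a median difference of -0.14. The 3 include Cebpg, the targeted gene itself. In WT 14 of the 21 rose (19.6% of all genes tested rose) and in Cebpg-/- 13 (17.2%).

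The effector and feedback genes of the stress response held the 2 lowest differences of all genes tested, those of Fgf21 and Trib3. Of 23 tested, 6 had a lower response (0.721% of all genes tested), 1 a higher response (0.656%) and 16 were not called, at a median of -0.15. Fgf21, whose promoter window is shown above, encodes a hormone released in starvation. In WT cells the arrays read 5.06, 4.69 and 4.92 for Fgf21 in normal medium and 6.53, 6.26 and 7.36 in AAD medium, and in Cebpg-/- cells they read 5.15, 4.89 and 4.78 and 5.05, 5.17 and 5.24. In AAD medium all 3 WT arrays stood above all 3 Cebpg-/- arrays, whereas in normal medium they overlapped. The response was 1.82 ± 0.17 in WT and 0.21 ± 0.17 in Cebpg-/-, and the difference of -1.61 ± 0.25 made the ratio of AAD to normal medium 3.06-fold lower (adjusted p = 0.0124).

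Trib3, a pseudokinase gene that ATF4 and CHOP raise and whose product restrains ATF4, followed the same pattern from a higher level. The 3 WT arrays gave Trib3 values of 8.80, 8.64 and 8.36 in normal medium and 10.73, 10.81 and 10.74 in AAD medium, and the 3 Cebpg-/- arrays gave 8.08, 7.95 and 8.26 and 8.40, 8.45 and 9.28. Replicate 3 of Cebpg-/- in AAD medium was the highest of its group, still below every WT array in that medium. The response was 2.16 ± 0.13 in WT and 0.61 ± 0.13 in Cebpg-/-, a difference of -1.55 ± 0.18 (2.92-fold, adjusted p = 0.0032). A second Trib3 probe set gave -1.57 ± 0.21. Trib1, a paralog that degrades C/EBPα, went the other way: the 3 pair responses were -0.01, -0.10 and -0.37 in WT and 0.72, 0.69 and 0.37 in Cebpg-/-. Its response was higher by 0.76 ± 0.14 (adjusted p = 0.0282, or 0.0566 without the block). It was called in 10 of 15 alternatives and not without WT replicate 2 or 3 or Cebpg-/- replicate 1 or 2 (adjusted p up to 0.106).

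Regulators of mTORC1 were among the genes with a lower response. Ddit4, which encodes the mTORC1 inhibitor REDD1, had pair responses of 0.82, 1.19 and 0.86 in WT and 0.28, 0.02 and -0.0039 in Cebpg-/-. Its response differed by -0.86 ± 0.11 (adjusted p = 0.00473, or 0.145 without the block). For Sesn2, an amino acid sensor that also restrains mTORC1, the 3 pair responses were 0.97, 0.74 and 1.08 in WT and 0.39, 0.43 and 0.19 in Cebpg-/-. The Sesn2 difference of -0.60 ± 0.11 (adjusted p = 0.0355, or 0.756 without the block) was called in 7 of 15 alternatives and not without WT replicate 1 or 3 or Cebpg-/- replicate 1, 2 or 3, nor with a random block or the 12 arrays alone (adjusted p up to 0.194). Crebrf, a bZIP regulator of the unfolded protein response, rose strongly in both genotypes, with pair responses of 2.98, 2.39 and 2.97 in WT and 1.62, 1.62 and 2.08 in Cebpg-/-. It differed by -1.01 ± 0.18 (adjusted p = 0.0273, or 0.0608 without the block), called in 8 of 15 alternatives and not without WT replicate 1 or 3 or Cebpg-/- replicate 1 or 2, nor with the 12 arrays alone or the mean of its probe sets (adjusted p up to 0.227). A second Crebrf probe set gave -0.65 ± 0.21 and a dimmer one gave 0.24 ± 0.19. Herpud1, an endoplasmic reticulum degradation gene, differed by -0.51 ± 0.08 (adjusted p = 0.0171), called in 10 of 15 alternatives and not without WT replicate 2 or 3 or Cebpg-/- replicate 1 or 2, nor with the 12 arrays alone (adjusted p up to 0.0744).

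Other members of the group rose in both genotypes with no called difference. Ppp1r15a, whose product GADD34 reverses eIF2 phosphorylation, had pair responses of 2.80, 2.76 and 2.70 in WT and 2.47, 2.27 and 2.49 in Cebpg-/-, and a difference of -0.34 ± 0.09 (adjusted p = 0.109), called in 2 of 15 alternatives. Chac1, which encodes a glutathione-degrading enzyme, responded with 0.92, 0.95 and 0.80 in WT and 0.73, 0.80 and 1.49 in Cebpg-/-. The Chac1 difference was 0.12 ± 0.17 (adjusted p = 0.823, 95% interval -0.25 to 0.49), and the pair responses overlapped. Klhl24 had a difference of -0.67 ± 0.16 (adjusted p = 0.0819), called in 2 of 15 alternatives, and Nupr1, a chromatin-linked stress gene, of -0.34 ± 0.08 (adjusted p = 0.0927). Vldlr, a lipoprotein receptor gene, rose by 1.05 in WT and 0.90 in Cebpg-/-, while its level differed between Cebpg-/- and WT by -2.07 in normal medium, which the difference of responses does not show. These are values of its brightest probe set; the 5 others gave differences of -0.30, -1.35, -0.77, -1.40 and -0.37, and the mean of all 6 was called (-0.72, adjusted p = 0.00138).

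**Figure D2:**
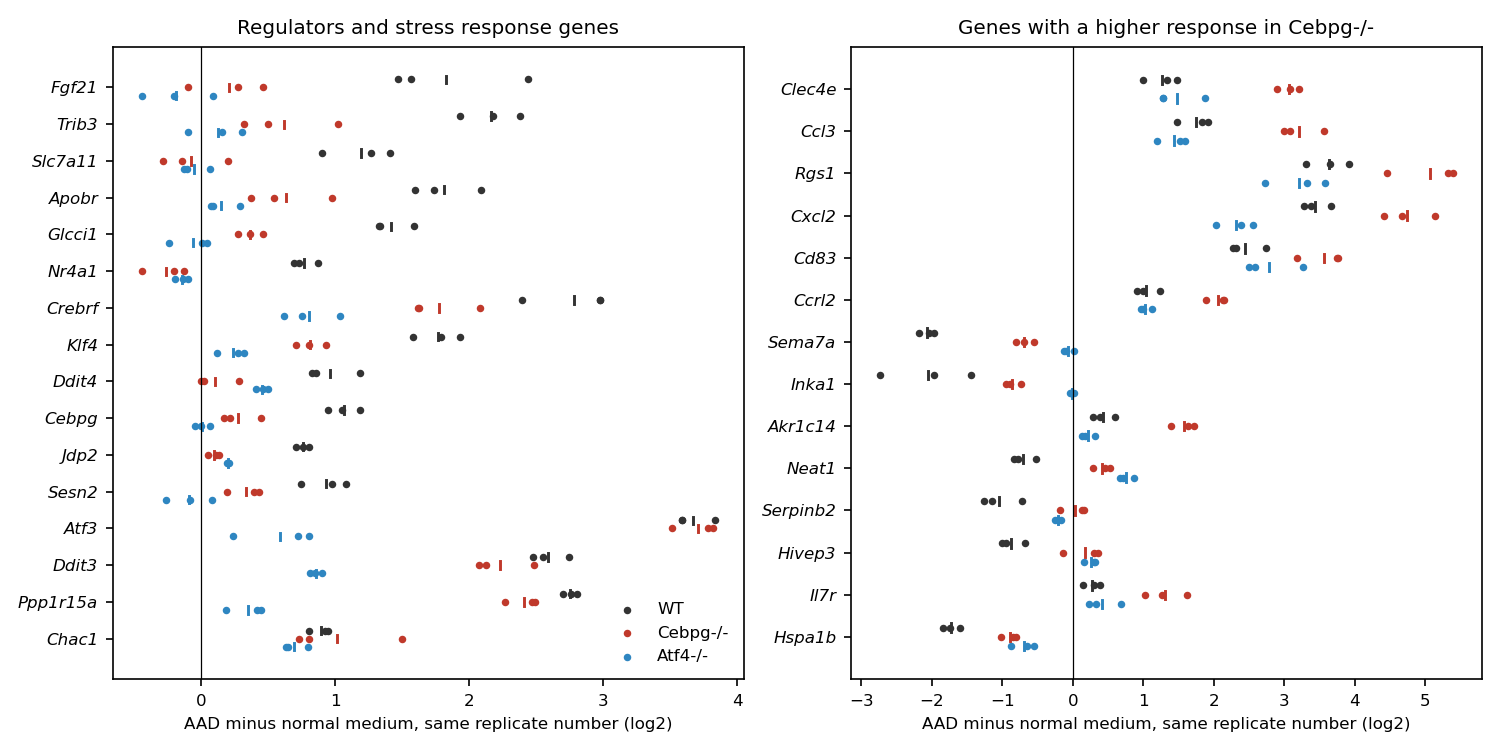
Pair responses (log2 value in AAD medium minus normal medium for arrays of 1 genotype and replicate number) of regulators and stress response genes on the left and of genes with a higher response in Cebpg-/- on the right. Points are the 3 pairs of each genotype and vertical ticks their mean. For Fgf21, Trib3 and Slc7a11 the 3 WT pairs lie to the right of all Cebpg-/- and Atf4-/- pairs, while for Atf3 the WT and Cebpg-/- pairs overlap and the Atf4-/- pairs lie lower.

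Of 22 amino acid transporters 3 had a lower response (0.721% of all genes tested), none a higher one and 19 were not called, at a median of -0.16. Slc7a11, which carries the element in both directions, is the cystine and glutamate exchanger that feeds glutathione synthesis. It rose in WT and not in Cebpg-/-. For Slc7a11 the WT values were 6.26, 6.05 and 5.95 in normal medium and 7.16, 7.31 and 7.36 in AAD medium, against 5.86, 5.66 and 5.26 and 5.72, 5.37 and 5.46 on the Cebpg-/- arrays. Every WT array in AAD medium stood above the other 9 arrays of the 2 genotypes. The response was 1.19 ± 0.10 in WT and -0.08 ± 0.10 in Cebpg-/-, a difference of -1.27 ± 0.15 (2.41-fold, adjusted p = 0.0032), and a second probe set gave -0.34 ± 0.21. Slc1a4, a neutral amino acid exchanger, had pair responses of 0.72, 1.14 and 1.13 in WT and 0.33, 0.46 and 0.44 in Cebpg-/- and a difference of -0.58 ± 0.11 (adjusted p = 0.0311, or 0.145 without the block). Slc3a2, the heavy chain that carries Slc7a11 and other light chains to the membrane, had 0.86, 0.91 and 0.97 in WT and 0.50, 0.47 and 0.61 in Cebpg-/-, a difference of -0.39 ± 0.07 (adjusted p = 0.0268, or 0.0978 without the block). Slc1a4 was called in 8 of 15 alternatives and not without WT replicate 2 or 3 or Cebpg-/- replicate 1, 2 or 3, nor with the 12 arrays alone (adjusted p up to 0.127), and Slc3a2 in 9 of 15 alternatives and not without WT replicate 2 or 3 or Cebpg-/- replicate 1 or 2, nor with the 12 arrays alone (adjusted p up to 0.116).  Slc38a2, the neutral amino acid carrier SNAT2, was not called (-0.35 ± 0.11, adjusted p = 0.188), and it rose by 1.16 in WT and 0.81 in Cebpg-/-.

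Among amino acid synthesis enzymes more were called in level than in response. Of 16 tested, 1 had a lower response (0.721% of all genes tested) and 15 were not called, at a median difference of -0.15. Of the 16 estimates 15 lay below 0, as did 6918 of the 13728 over all genes. The 1 was Gpt2, an alanine aminotransferase gene. Gpt2 read 8.67, 8.57 and 8.60 on the 3 WT arrays in normal medium and 8.996, 8.89 and 8.94 in AAD medium, while the Cebpg-/- arrays read 7.69, 7.59 and 7.74 and 7.66, 7.35 and 7.72. The Gpt2 groups did not overlap in either medium, and the response differed by -0.43 ± 0.07 (adjusted p = 0.0236, or 0.327 without the block), called in 9 of 15 alternatives and not without WT replicate 1, 2 or 3 or Cebpg-/- replicate 2, nor with the 12 arrays alone (adjusted p up to 0.0898). In normal medium 10 of the 16 enzymes already stood lower in Cebpg-/- than in WT (11.1% of all genes tested), at a median level difference of -0.37. In AAD medium also 10 did (13.4% of all genes tested were lower there), at a median of -0.54. Cth, which makes cysteine from cystathionine, read 9.18, 9.28 and 9.19 in WT and 6.11, 6.58 and 6.89 in Cebpg-/- in normal medium, a level difference of -2.69 ± 0.16 (adjusted p = 3.97e-08), while its response difference of -0.35 ± 0.12 did not pass (adjusted p = 0.233). Asns, the asparagine synthetase gene, had a level difference in normal medium of -0.51 ± 0.08 (adjusted p = 0.000183), and its response difference was -0.16 ± 0.10 (adjusted p = 0.57, 95% interval -0.39 to 0.08). Psph, for the last step of serine synthesis (-0.33 ± 0.07, adjusted p = 0.0601), and the folate enzyme gene Mthfd2 (-0.35 ± 0.12, adjusted p = 0.217) were not called, though Psph was called in 6 of 15 alternatives.

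None of 19 aminoacyl-tRNA synthetase genes was called (1.38% of all genes tested were), at a median difference of -0.11. The estimates were below 0 for 15 of them, led by Lars (-0.23 ± 0.06, adjusted p = 0.105) and Tars (-0.23 ± 0.07, adjusted p = 0.143). In WT 10 of the 19 rose (19.6% of all genes tested) and in Cebpg-/- 7 (17.2%). In the list of glutathione and antioxidant genes Slc7a11 had the only lower response of 22 (0.721% of all genes tested were lower). Ggct, for an enzyme of glutathione breakdown, had the only higher one (0.656% of all genes tested were higher). Its difference was 0.33 ± 0.06 (adjusted p = 0.0383, or 1 without the block), called in 4 of 15 alternatives and not without WT replicate 1, 2 or 3 or Cebpg-/- replicate 1, 2 or 3, nor with a random block, the 12 arrays alone, no filter or the mean of its probe sets (adjusted p up to 0.709). Ggct also varied within Cebpg-/-, with 8.71, 9.17 and 9.86 in normal medium against 7.95, 7.64 and 7.55 in WT.

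**Figure D3:**
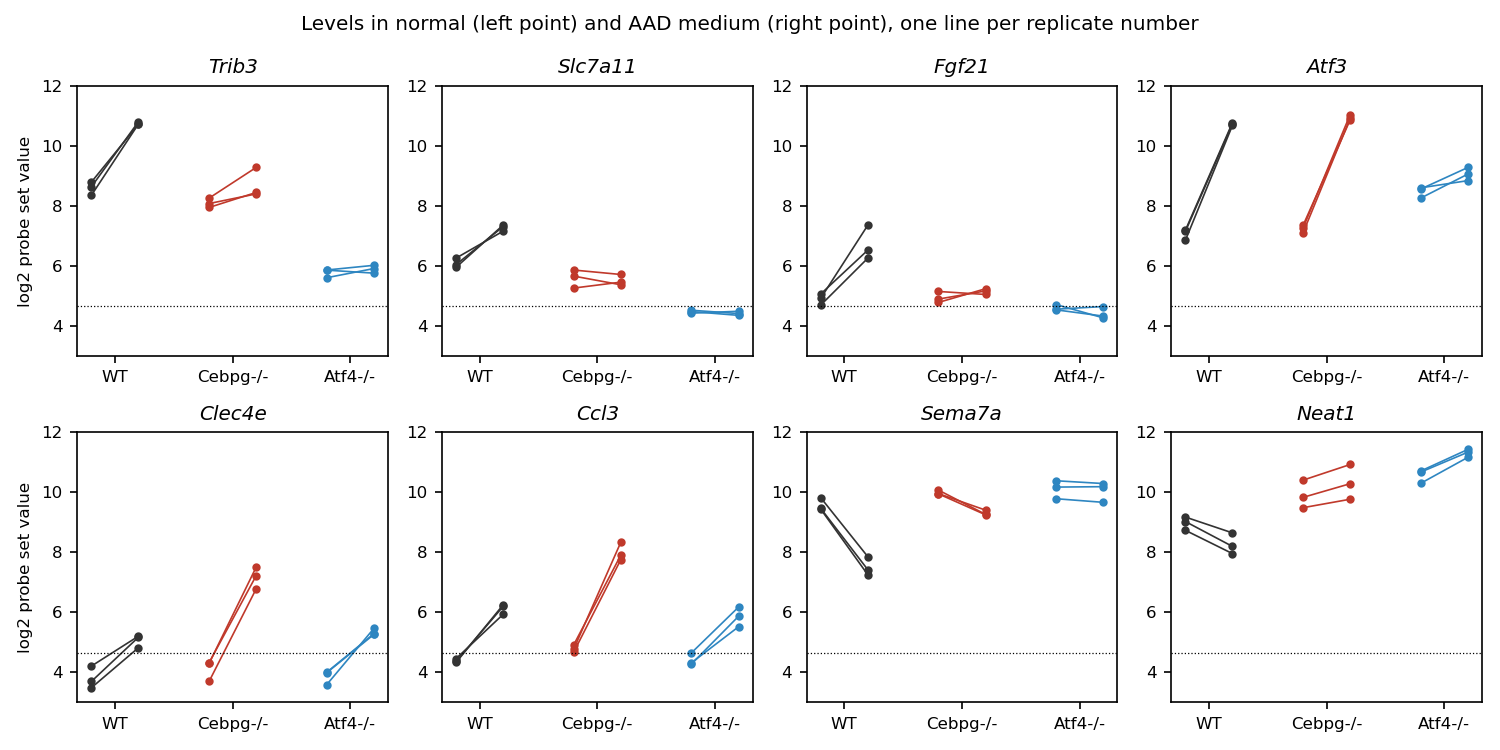
Log2 probe set values of 8 genes in normal medium (left point) and AAD medium (right point), with 1 line per replicate number and the level of 4.65 dotted. Trib3, Slc7a11 and Fgf21 climb in WT and little or not in Cebpg-/-, Atf3 climbs alike in both, Clec4e and Ccl3 climb further in Cebpg-/-, and Sema7a and Neat1 fall in WT.

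Immediate early genes, which cells raise within the first hours of a stimulus, were called on both sides. Of 34 tested, 6 had a lower response (0.721% of all genes tested) and 2 a higher one (0.656%), and 26 were not called, at a median of -0.06. Nr4a1, an orphan nuclear receptor gene, changed in opposite directions. In WT cells the arrays read 9.29, 9.30 and 9.50 for Nr4a1 in normal medium and 10.02, 9.99 and 10.37 in AAD medium, and in Cebpg-/- cells they read 9.20, 9.10 and 9.02 and 9.07, 8.65 and 8.81. All 3 WT pairs rose (0.73, 0.69 and 0.87) and all 3 Cebpg-/- pairs fell (-0.13, -0.45 and -0.21), and both changes were called (0.76 ± 0.06 and -0.26 ± 0.06). The difference was -1.03 ± 0.09 (adjusted p = 0.00115). Klf4, a zinc finger factor of growth arrest, began higher in Cebpg-/- than in WT. The 3 WT arrays gave Klf4 values of 9.65, 9.44 and 9.68 in normal medium and 11.23, 11.23 and 11.60 in AAD medium, and the 3 Cebpg-/- arrays gave 10.20, 10.33 and 10.28 and 11.003, 11.04 and 11.21. Its response differed by -0.95 ± 0.10 (adjusted p = 0.0022), and its level difference was 0.68 ± 0.10 in normal medium and -0.27 ± 0.10 in AAD medium (adjusted p = 0.0528). A second Klf4 probe set gave -0.91 ± 0.12.

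Klf10, which TGF-β raises in many cells, had pair responses of 1.32, 1.46 and 1.31 in WT and 0.67, 0.70 and 0.83 in Cebpg-/-, a difference of -0.63 ± 0.08 (adjusted p = 0.00493). Myc rose by 1.77, 1.72 and 1.86 in WT and 1.21, 0.97 and 1.33 in Cebpg-/-, a difference of -0.61 ± 0.09 (adjusted p = 0.0122, or 0.0856 without the block), called in 13 of 15 alternatives and not without WT replicate 3 (adjusted p = 0.0605). The AP-1 gene Fosl2 (-0.44 ± 0.08, adjusted p = 0.0221, or 0.337 without the block) and Nr4a2 (-0.42 ± 0.08, adjusted p = 0.0406, or 0.572 without the block) were the 2 others called lower. Fosl2 was called in 8 of 15 alternatives and not without WT replicate 1 or 2 or Cebpg-/- replicate 1 or 2, nor with the 12 arrays alone or the mean of its probe sets (adjusted p up to 0.0891), and Nr4a2 in 4 of 15 alternatives and not without WT replicate 1, 2 or 3 or Cebpg-/- replicate 1, 2 or 3, nor with a random block, the 12 arrays alone, no filter or the mean of its probe sets (adjusted p up to 0.135). The 2 called higher encode phosphatases that shut off ERK signalling, and both fell in WT. Dusp6 had pair responses of -0.76, -0.81 and -0.81 in WT and -0.33, -0.22 and -0.15 in Cebpg-/-, a difference of 0.56 ± 0.07 (adjusted p = 0.00473, or 0.389 without the block), and Dusp5 one of 0.58 ± 0.09 (adjusted p = 0.0154, or 0.42 without the block), called in 12 of 15 alternatives and not without WT replicate 3 or Cebpg-/- replicate 3 (adjusted p up to 0.0581). Fos (-0.18 ± 0.17, adjusted p = 0.722) and Egr1 (0.52 ± 0.15, adjusted p = 0.143) rose strongly in both genotypes and were not called. Their pair responses ran from 1.93 to 2.70 for Fos and from 2.79 to 3.14 for Egr1 in Cebpg-/-.

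Genes that FOXO factors raise when growth factor signalling is low, and targets of p53, were a further group with single lower responses. Of 18 FOXO-type genes 4 had a lower response and none a higher one, at a median of -0.13 and a range of -0.76 to 0.77. Of 19 p53 targets 3 responded lower and none higher, with a median of -0.01. Over all genes tested 0.721% responded lower. The FOXO-type gene Fbxo32 went the other way without a call. Its difference lay between 0.45 and 1.04 over 15 alternatives. It was called higher in 1 of them, without Cebpg-/- replicate 1 (adjusted p = 0.0432). Cited2, a CBP/p300-binding coregulator, had pair responses of 1.60, 1.88 and 1.75 in WT and 1.19, 0.98 and 0.76 in Cebpg-/-, a difference of -0.76 ± 0.11 (adjusted p = 0.0087, or 0.0566 without the block). Its level was higher in Cebpg-/- in normal medium by 0.79 and did not differ by a call in AAD medium (0.03 ± 0.11, adjusted p = 0.878). Trp53inp1, a p53 and autophagy gene that stands in both lists, differed by -0.68 ± 0.09 (adjusted p = 0.00736, or 0.633 without the block), and it too began higher in Cebpg-/- (0.80 ± 0.20). It was called in 12 of 15 alternatives and not with a random block or the mean of its probe sets (adjusted p up to 0.13), and a dimmer second probe set gave -0.03 ± 0.14. Tsc22d3, the glucocorticoid-induced gene GILZ, rose in WT (0.45, 0.49 and 0.60) and had Cebpg-/- pair responses of -0.06, -0.14 and 0.02, a difference of -0.58 ± 0.08 (adjusted p = 0.00796, or 0.144 without the block). Its 3 other probe sets gave -0.48, -0.16 and -0.12, and it was called in 13 of 15 alternatives and not with the mean of its probe sets (adjusted p = 0.0671). Bbc3, which encodes the cell death protein PUMA, rose by 1.39, 1.56 and 1.45 in WT and 0.66, 0.99 and 0.47 in Cebpg-/-, a difference of -0.76 ± 0.13 (adjusted p = 0.0195, or 0.0704 without the block), called in 11 of 15 alternatives and not without WT replicate 2 or 3 or Cebpg-/- replicate 1 (adjusted p up to 0.0723). The FOXO-type gene Ccng2 (-0.46 ± 0.09, adjusted p = 0.0343, or 0.66 without the block) completed the 4, called in 7 of 15 alternatives and not without WT replicate 1, 2 or 3 or Cebpg-/- replicate 1 or 2, nor with a random block or no filter (adjusted p up to 0.144), and Sesn2 is the other p53 target.

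Apobr and Glcci1 lay outside every list. Apobr, a lipoprotein receptor gene of macrophages and other cells, rose in both genotypes. For Apobr the WT values were 6.46, 6.33 and 6.49 in normal medium and 8.05, 8.07 and 8.58 in AAD medium, against 6.14, 6.21 and 6.52 and 7.11, 6.75 and 6.89 on the Cebpg-/- arrays. The groups overlapped in normal medium and not in AAD medium, and the response differed by -1.18 ± 0.16 (adjusted p = 0.00682, or 0.0534 without the block). Glcci1, a glucocorticoid-induced transcript, started far higher in Cebpg-/-. Glcci1 read 6.51, 6.28 and 6.13 on the 3 WT arrays in normal medium and 7.84, 7.61 and 7.72 in AAD medium, while the Cebpg-/- arrays read 7.61, 8.07 and 8.49 and 7.89, 8.53 and 8.85. The response differed by -1.05 ± 0.10 (adjusted p = 0.00139, or 0.381 without the block), while the level difference was 1.75 ± 0.24 in normal medium and 0.70 ± 0.24 in AAD medium. Across the Cebpg-/- replicates Glcci1 varied by more than its response. Of the 99 genes with a lower response, 23 were higher in Cebpg-/- than in WT in normal medium (12.3% of the genes tested), 22 lower (11.1%) and 54 not called. In AAD medium 5 were higher (16.1% of the genes tested), 72 lower (13.4%) and 22 not called. Both level differences are terms of the difference of responses. The choice of genes therefore favours such signs, and nothing is read from these counts.

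Several lists of stress and growth genes held no called member in this comparison. Herpud1 and Trp53inp1, called above, were counted in other lists. None of 20 endoplasmic reticulum chaperones and quality control genes (median 0.05, range -0.06 to 0.18), 31 autophagy and lysosome genes (median -0.05), 22 S-phase and mitosis genes (median -0.04) or 15 sterol synthesis genes (median 0.01) had a called difference of response. Over all genes tested 1.38% had one. At that share a list of this size can hold no call, so nothing is read from these counts. Of the autophagy and lysosome genes 19 rose in WT (19.6% of all genes tested) and 19 in Cebpg-/- (17.2%). Sterol synthesis genes differed in level instead: 14 of the 15 were lower in Cebpg-/- than in WT in normal medium (11.1% of all genes tested), at a median of -0.80. In AAD medium 15 were lower (13.4% of all genes tested). Among 12 heat shock chaperones, Hspa1b, an inducible Hsp70 gene, was the 1 called, with a higher response (0.656% of all genes tested). In WT cells the arrays read 10.56, 10.39 and 10.75 for Hspa1b in normal medium and 8.82, 8.79 and 8.92 in AAD medium, and in Cebpg-/- cells they read 10.72, 10.57 and 10.22 and 9.70, 9.77 and 9.37. It fell in every pair, by less in Cebpg-/-, and the response was higher by 0.83 ± 0.10 (adjusted p = 0.00371, or 0.543 without the block), called in 13 of 15 alternatives and not with a random block (adjusted p = 0.0602). The 2 other Hspa1b probe sets gave 0.85 ± 0.11 and 0.87 ± 0.12, and its near-identical copy Hspa1a, which can share signal with it, gave 0.28 ± 0.15 (adjusted p = 0.472).

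**Figure D4:**
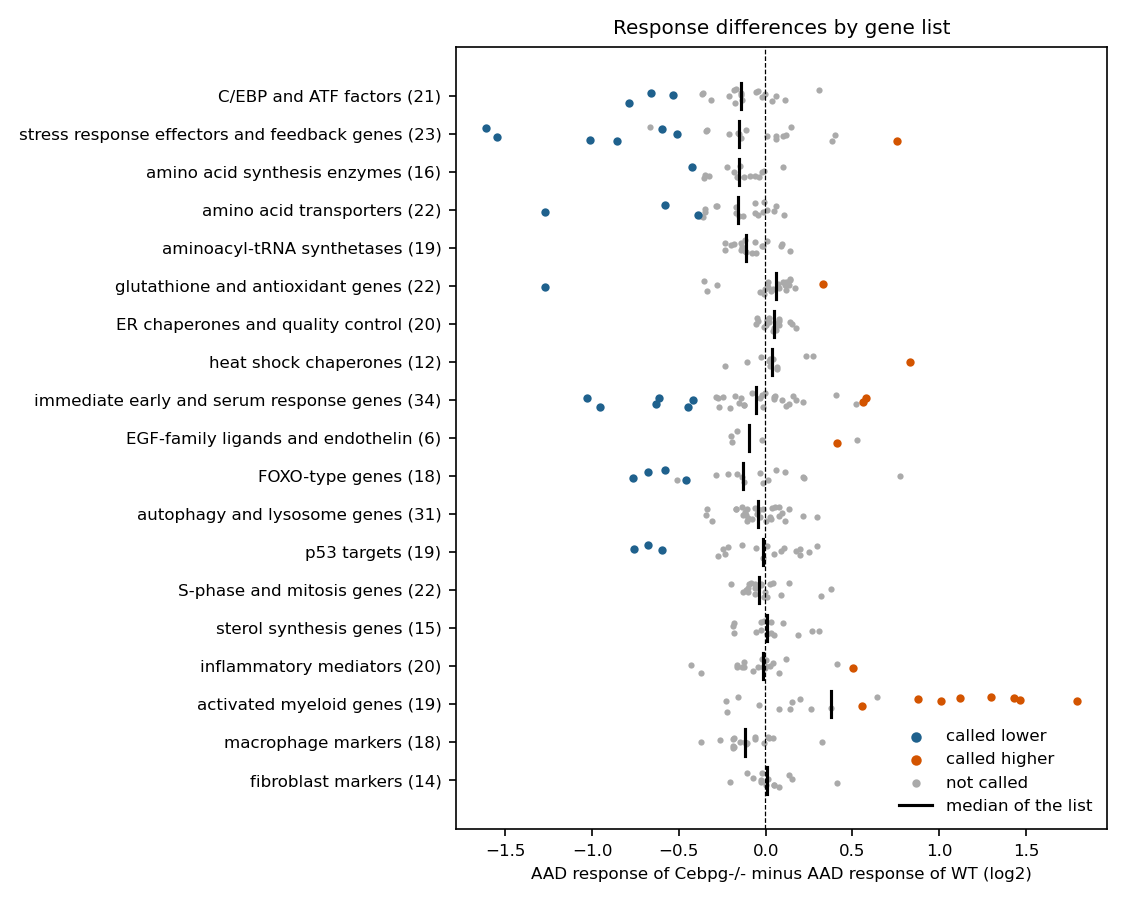
Difference of the AAD response, Cebpg-/- minus WT (log2), for the genes tested of each list, with the number tested in parentheses. Blue points were called lower, orange points called higher and grey points not called, black bars are list medians and the dashed line is the median of all genes tested. Activated myeloid genes reach furthest to the right, and the stress response effectors and Slc7a11 furthest to the left.

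Genes typical of activated myeloid cells, such as chemokines and lectin receptors that macrophages make when stimulated, had the largest higher responses. Of 19 tested, 8 had a higher response and none a lower one, 42.1% of the list against 0.656% of all genes tested, at a median of 0.38. The list was chosen with earlier results of these data known, so this share is no independent test. In normal medium 5 of the 19 had a group mean under 4.65 in WT and 3 in Cebpg-/-. Clec4e encodes Mincle, a lectin receptor for damaged cells. The 3 WT arrays gave Clec4e values of 3.70, 4.21 and 3.49 in normal medium and 5.18, 5.21 and 4.83 in AAD medium, and the 3 Cebpg-/- arrays gave 3.70, 4.30 and 4.32 and 6.79, 7.51 and 7.23. All 6 values of both genotypes in normal medium lay under 4.65 and overlapped, while in AAD medium each Cebpg-/- array was above each WT array. The response was 1.27 ± 0.12 in WT and 3.07 ± 0.12 in Cebpg-/-, a difference of 1.80 ± 0.17 (adjusted p = 0.00139), with sizes uncertain because both rises start under 4.65. Ccl3 encodes a macrophage chemokine. For Ccl3 the WT values were 4.37, 4.33 and 4.46 in normal medium and 6.20, 6.25 and 5.94 in AAD medium, against 4.68, 4.78 and 4.92 and 7.76, 8.34 and 7.91 on the Cebpg-/- arrays. It rose in both genotypes, and the response was higher in Cebpg-/- by 1.47 ± 0.17 (adjusted p = 0.0032). The size of this difference is uncertain, because the WT values in normal medium lay under 4.65.

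Rgs1, a regulator of G protein signalling in leukocytes, had pair responses of 3.31, 3.92 and 3.66 in WT and 4.46, 5.32 and 5.40 in Cebpg-/-, a difference of 1.43 ± 0.28 (adjusted p = 0.0365, or 0.0609 without the block). The neutrophil chemokine gene Cxcl2 had 3.38, 3.67 and 3.28 and 4.42, 5.14 and 4.66, a difference of 1.30 ± 0.19 (adjusted p = 0.0092, or 0.0566 without the block), from WT levels under 4.65 in normal medium. Cd83, a surface protein of activated dendritic cells, differed by 1.12 ± 0.22 (adjusted p = 0.041, or 0.0801 without the block), and the chemokine-binding receptor gene Ccrl2 by 1.01 ± 0.10 (adjusted p = 0.00158, or 0.0507 without the block). Ccl4 (0.88 ± 0.15, adjusted p = 0.0236, or 0.0566 without the block) and the interleukin 1 antagonist gene Il1rn (0.55 ± 0.11, adjusted p = 0.0427, or 0.878 without the block) were the 2 others called. Ccl3 and Clec4e were called in all 15 alternatives. Rgs1 was called in 7 of 15 alternatives and not without WT replicate 1, 2 or 3 or Cebpg-/- replicate 2 or 3, nor with the 12 arrays alone or trended robust variances (adjusted p up to 0.126), and Cd83 in 8 of 15 alternatives and not without WT replicate 1, 2 or 3 or Cebpg-/- replicate 2 or 3, nor with no filter (adjusted p up to 0.158). Ccl4 was called in 9 of 15 alternatives and not without WT replicate 2 or 3 or Cebpg-/- replicate 1 or 2, nor with the 12 arrays alone (adjusted p up to 0.0909), and Il1rn in 5 of 15 alternatives and not without WT replicate 1 or 3 or Cebpg-/- replicate 1, 2 or 3, nor with a random block, the 12 arrays alone, no filter or the mean of its probe sets (adjusted p up to 0.296). The list counted 2 members higher without the replicate block, 4 without WT replicate 3 and 4 without Cebpg-/- replicate 2. Tnf, the gene of tumour necrosis factor, was not called (0.64 ± 0.18, adjusted p = 0.13).

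Macrophage markers stood higher in Cebpg-/- than in WT in both media, and none had a called difference of response (1.38% of all genes tested had). The mean level of the 18 markers lay between 7.24 and 7.48 on the WT arrays in normal medium and between 7.91 and 8.29 on the Cebpg-/- arrays, and between 6.90 and 7.09 and between 7.53 and 7.81 in AAD medium. At most 1 of the 18 lay under 4.65 in any of these 4 groups. The marker mean therefore fell in AAD medium in both genotypes, while the mean of the 19 activated myeloid genes rose from 5.30 to 6.17 in WT and from 5.65 to 7.09 in Cebpg-/-. The median difference of response of the 18 markers was -0.12. Lyz2, the lysozyme gene of macrophages, fell by 1.24 in WT and 1.23 in Cebpg-/- and stood higher in Cebpg-/- by 1.74 in normal medium. Fewer or more cells of a type and less or more RNA per cell cannot be told apart in such bulk samples, and the part of the macrophage markers in the myeloid responses was not tested.

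**Figure D5:**
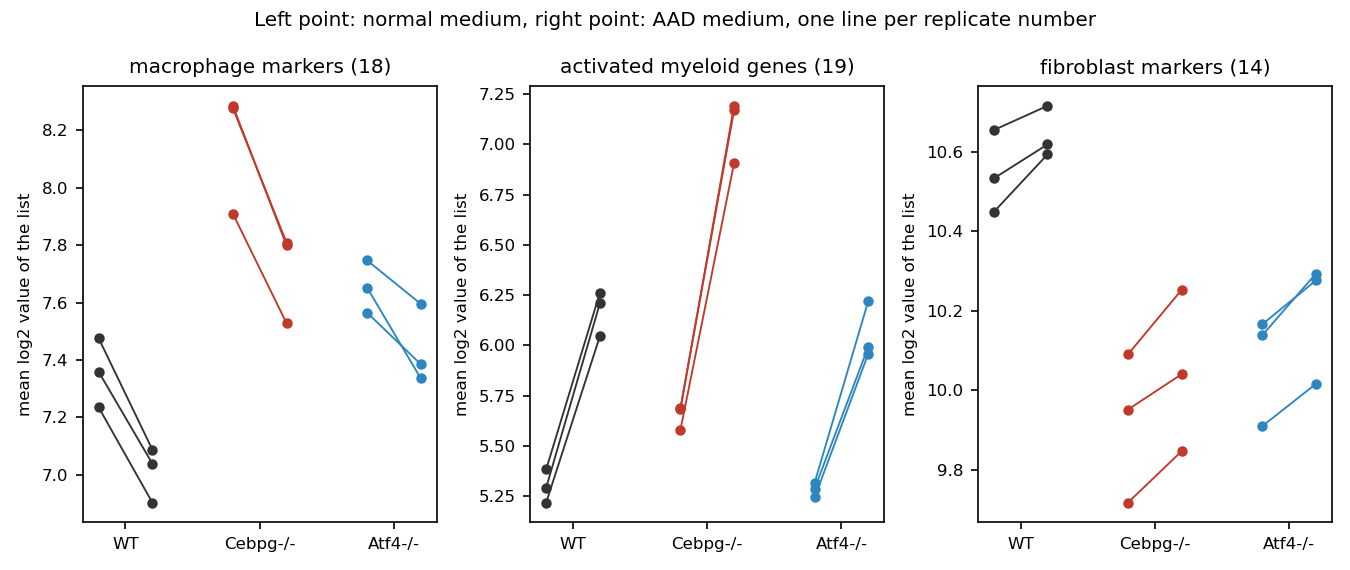
Mean log2 value over the genes of 3 lists on each array, in normal medium (left point) and AAD medium (right point), with 1 line per replicate number. The y axes differ between panels. Macrophage markers stand higher in Cebpg-/- than in WT and fall in AAD medium in all genotypes, and the Cebpg-/- and Atf4-/- arrays overlap in AAD medium. Activated myeloid genes rise most in Cebpg-/-, and fibroblast markers stand highest in WT.

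Inflammatory mediators that fibroblasts also make held 1 call. Of 20 tested, 1 had a higher response (0.656% of all genes tested) and 19 were not called, at a median of -0.02. The 1 was Nfkbiz, an NF-κB cofactor gene (0.50 ± 0.09, adjusted p = 0.0251, or 0.543 without the block), called in 6 of 15 alternatives and not without WT replicate 1, 2 or 3 or Cebpg-/- replicate 1 or 3, nor with a random block, the 12 arrays alone or the mean of its probe sets (adjusted p up to 0.107). The cytokine gene Il6 (-0.37 ± 0.14, adjusted p = 0.276) and the chemokine gene Ccl2 (-0.43 ± 0.14, adjusted p = 0.19) rose in both genotypes with differences below 0 that did not pass. Il6 varied within Cebpg-/- in normal medium (6.66, 5.95 and 5.20) and read 7.998, 8.24 and 8.25 in WT.

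Several of the larger higher responses were smaller falls. Sema7a, a membrane-anchored semaphorin, gave the lowest adjusted p among the genes named. Sema7a read 9.82, 9.47 and 9.44 on the 3 WT arrays in normal medium and 7.86, 7.42 and 7.26 in AAD medium, while the Cebpg-/- arrays read 10.08, 9.96 and 9.95 and 9.27, 9.41 and 9.26. Sema7a fell in every pair of both genotypes, with responses of -2.07 ± 0.06 in WT and -0.69 ± 0.06 in Cebpg-/-. The difference was 1.38 ± 0.09 (adjusted p = 0.00023), and a second probe set gave 0.52 ± 0.11. For Inka1, an inhibitor of the kinase PAK4, the 3 pair responses were -1.45, -1.97 and -2.74 in WT and -0.90, -0.95 and -0.74 in Cebpg-/-. The Inka1 difference of 1.19 ± 0.24 (adjusted p = 0.0464) was called in 7 of 15 alternatives and not without WT replicate 2 or Cebpg-/- replicate 1, 2 or 3, nor with the 12 arrays alone, no filter, quantile normalization or trended robust variances (adjusted p up to 0.126). Ereg, the gene of the growth factor epiregulin, differed by 0.41 ± 0.08 (adjusted p = 0.0327, or 0.786 without the block), called in 5 of 15 alternatives and not without WT replicate 1, 2 or 3 or Cebpg-/- replicate 1, 2 or 3, nor with a random block, the 12 arrays alone or no filter (adjusted p up to 0.215).

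Neat1, a long noncoding RNA that builds nuclear paraspeckles, changed in opposite directions. In WT cells the arrays read 9.18, 9.03 and 8.74 for Neat1 in normal medium and 8.65, 8.20 and 7.96 in AAD medium, and in Cebpg-/- cells they read 9.49, 9.84 and 10.41 and 9.77, 10.29 and 10.93. All 3 pairs fell in WT and all 3 rose in Cebpg-/-, with responses of -0.71 ± 0.07 and 0.42 ± 0.07. The difference was 1.13 ± 0.10 (adjusted p = 0.00115, or 0.401 without the block), but a second, dimmer probe set gave -0.18 ± 0.08. Serpinb2, a plasminogen activator inhibitor gene, fell in WT (-1.15, -0.72 and -1.26) and had Cebpg-/- pair responses of -0.18, 0.15 and 0.13, a difference of 1.08 ± 0.14 (adjusted p = 0.00468, or 0.389 without the block). Its level was higher in Cebpg-/- in normal medium by 1.71. Hivep3, a zinc finger factor of bone and immune cells, differed by 1.05 ± 0.13 (adjusted p = 0.00473) at its brightest probe set, while its 4 other probe sets, all dimmer, gave between -0.26 and -0.01, and the mean of its probe sets was not called (adjusted p = 0.418).

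Akr1c14, an aldo-keto reductase gene, and Il7r, the interleukin 7 receptor gene, lay near the floor in WT. The 3 WT arrays gave Akr1c14 values of 3.58, 3.86 and 3.69 in normal medium and 4.18, 4.25 and 3.98 in AAD medium, and the 3 Cebpg-/- arrays gave 3.90, 4.01 and 4.15 and 5.30, 5.64 and 5.87. The Akr1c14 response was 0.43 ± 0.07 in WT and 1.58 ± 0.07 in Cebpg-/-, a difference of 1.16 ± 0.11 (adjusted p = 0.00115), of uncertain size because only the Cebpg-/- values in AAD medium lay above 4.65. Il7r stayed at or under 4.50 on all 6 WT arrays and read 5.79, 5.65 and 5.95 in Cebpg-/- in AAD medium, a difference of responses of 1.03 ± 0.16 (adjusted p = 0.0121). Both genes were called in all 15 alternatives. No WT group could carry them past the filter at 4.65, so the stable call adds no separate support. Of the 90 genes with a higher response, 13 were higher in Cebpg-/- in normal medium (12.3% of the genes tested), 25 lower (11.1%) and 52 not called. In AAD medium 58 were higher (16.1%), 5 lower (13.4%) and 27 not called. These levels are terms of the difference, so the choice of genes favours such signs, and nothing is read from the counts.

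Zinc finger genes named Zfp, Zscan or Zkscan were noticed after their values were seen, so no test is given for them as a class. Of 316 tested, 9 had a higher response (2.85%, against 0.656% of all genes tested) and 3 a lower one (0.949%, against 0.721%), at a median of 0.02. Examples are Zscan22, which fell by 1.48 in WT and 0.56 in Cebpg-/- (adjusted p = 0.0248 for the difference of 0.92 ± 0.16), and Zfp11, with a difference of 0.82 ± 0.14 (adjusted p = 0.0248, or 0.0531 without the block). Zscan22 was called in 10 of 15 alternatives and not without WT replicate 1, 2 or 3 or Cebpg-/- replicate 1 or 2 (adjusted p up to 0.0919), and Zfp11 in 9 of 15 alternatives and not without WT replicate 1 or 3 or Cebpg-/- replicate 2 or 3, nor with the 12 arrays alone (adjusted p up to 0.0953).

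The 2 knockouts were also set against each other, a comparison that uses no WT array but shares the 6 Cebpg-/- arrays with the one above. The response of Cebpg-/- was higher than that of Atf4-/- for 1037 genes (7.55%) and lower for 787 (5.73%), and without the replicate block 728 genes were called in all. Several genes without a called C/EBPγ dependence were called between the knockouts. Atf3 responded by 3.70 ± 0.10 in Cebpg-/- and 0.59 ± 0.10 in Atf4-/-, a gap of 3.12 ± 0.15 (adjusted p = 2.05e-06). Egr1 gave a gap of 3.53 ± 0.15, Fos of 2.20 ± 0.17, Ppp1r15a of 2.06 ± 0.09 and Ddit3 of 1.37 ± 0.11 (adjusted p = 4.09e-05).

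Other gaps were not called, among them those of 5 genes with a lower response in Cebpg-/- than in WT. Slc7a11 responded by -0.08 ± 0.10 in Cebpg-/- and -0.06 ± 0.10 in Atf4-/-, a gap of -0.02 ± 0.15 (adjusted p = 0.948). Fgf21 gave a gap of 0.40 ± 0.25 (adjusted p = 0.33), Trib3 of 0.49 ± 0.18 (adjusted p = 0.103), Cebpg of 0.27 ± 0.09 (adjusted p = 0.0784) and Nr4a1 of -0.12 ± 0.09 (adjusted p = 0.445). None of these 5 passed, which does not show that the knockouts act alike. Slc7a11 and Fgf21 had mean levels under 4.65 in Atf4-/- in both media, so the size of their responses there is uncertain. Crebrf was called, with 1.77 ± 0.13 in Cebpg-/-, 0.80 ± 0.13 in Atf4-/- and a gap of 0.97 ± 0.18 (adjusted p = 0.00685).

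Of the activated myeloid genes, Clec4e, Ccl3 and Ccrl2 were also called higher in Cebpg-/- than in Atf4-/-, as were 7.55% of all genes tested. They were named for a higher response than in WT, and the same Cebpg-/- arrays are used again. The gaps are therefore no separate support, and the other members of the list are not given here. In Atf4-/-, where 6.42% of the genes tested rose and 4.68% fell, Clec4e rose by 1.48 ± 0.12, Ccl3 by 1.44 ± 0.12 and Ccrl2 by 1.03 ± 0.07, with gaps to Cebpg-/- of 1.59 ± 0.17 (adjusted p = 0.000294), 1.77 ± 0.17 (adjusted p = 0.000128) and 1.02 ± 0.10 (adjusted p = 0.000172). The mean level of the macrophage markers in Atf4-/- lay between 7.56 and 7.75 in normal medium, below the Cebpg-/- arrays and above the WT arrays. In AAD medium it lay between 7.34 and 7.60 and overlapped the Cebpg-/- arrays. Sema7a, which fell in both other genotypes, responded by -0.07 ± 0.06 in Atf4-/-, and the gap of -0.62 ± 0.09 was called (adjusted p = 0.00147).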

How the data were processed

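The authors deposited 1 log2 value per probe set and array, made with RMA (background correction, quantile normalization and summary of probes) per the submitters' processing notes; the version and the settings are not given in the sources used here. Quantile normalization gives all arrays nearly the same distribution, with array medians between 5.21 and 5.27, so a shift of all genes together cannot be seen, and low values are compressed. No 2 arrays held identical values. With 3 arrays per group, the number of arrays limits the precision.

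Probe sets were named from the platform annotation, with symbols updated by Entrez identifier. Of 45101 probe sets, 34958 had 1 gene symbol, 932 had several and 9211 were not listed, and only those with 1 symbol were used. The probe set with the highest mean stood for each of 18194 genes, and other probe sets are given for some of the genes named. Genes were tested where the highest group mean reached the 40th percentile of all values (4.65). The model was fitted with limma 3.58.1 in R 4.3.3 to all 18 arrays in 6 groups, with the replicate number within each genotype as a fixed block (6 residual degrees of freedom before moderation). Level differences between genotypes came from group means without the block (12 degrees of freedom). P-values were two-sided and Benjamini-Hochberg adjusted over the 13728 genes tested, and intervals are 95%. The scripts were tested on simulated data.

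Replicate numbers come from the sample titles. Same-numbered arrays of a genotype were treated as pairs by the rule of the comparison, which was set beforehand. Deviations from group means correlated between media at r = 0.30 to 0.69 for the 9 pairs of the same number and genotype and at -0.56 to 0.09 for the 18 pairs of other numbers. The deviations within a group sum to 0 for each gene, so these 2 ranges are not independent of each other. The genes and lists were chosen with earlier results of these data known. The naming rule took Cebpg and Atf4, the 15 lowest and 15 highest called differences of at least 1, the 4 largest differences of each list, all C/EBP and ATF factors and synthesis enzymes, and genes in counts of 5 or fewer. Ccl4, Ccng2, Chac1, Dusp5, Dusp6, Egr1, Fos, Fosl2, Herpud1, Il1rn, Kdm5d, Klhl24, Lyz2, Nr4a2, Nupr1, Ppp1r15a, Slc38a2, Tnf, Trib1, Vldlr, Xist, Zfp11 and Zscan22 were chosen after their values were seen. Arhgef2, Arl14ep, Bdnf and Slc7a7 were named only for their promoter match. Members of the lists without a probe set of 1 symbol were not analysed here. The alternatives were no block, a random block, the 12 arrays alone, no or a stricter filter, median centring, quantile normalization, the mean of all probe sets, trended robust variances, and leaving out each replicate number of WT or Cebpg-/-. Lists without a called member (1.38% of all genes tested were called) that were not described are the smooth muscle, endothelial, skeletal muscle and Schwann markers, with 8, 2, 3 and 4 genes tested and median differences of -0.03, -0.30, 0.11 and 0.01. The list of EGF-family ligands and endothelin had 1 called higher of 6 (0.656% of all genes tested), Ereg, at a median of -0.09.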

Additional observations from a re-analysis of the deposited data

Results flagged for a closer look

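The response to AAD medium differed between Cebpg-/- and WT for 189 genes by limma's test of the difference itself, 99 lower and 90 higher in Cebpg-/-. For 12 of them the response was called in both genotypes and in opposite directions. Without the replicate block 11 of the 12 lost the call of the difference, all but Nr4a1. Nr4a1 (difference -1.03) and Neat1 (1.13) are described above with their values on each array.

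Ankrd1, a target of mechanical signalling, gave 0.21 in WT and -0.14 in Cebpg-/- (difference -0.34 ± 0.06, adjusted p = 0.0332, or 0.835 without the block). It was called in 4 of 15 alternatives and not without WT replicate 1, 2 or 3 or Cebpg-/- replicate 1, 2 or 3, nor with a random block, the 12 arrays alone, no filter or quantile normalization (adjusted p up to 0.248). The monocyte chemokine gene Ccl8 gave 0.21 in WT and -0.17 in Cebpg-/- (difference -0.38 ± 0.07, adjusted p = 0.0242, or 0.145 without the block) and was called in 6 of 14 alternatives and not without WT replicate 1, 2 or 3 or Cebpg-/- replicate 2 or 3, nor with the 12 arrays alone or trended robust variances (adjusted p up to 0.111). Pkd1l2 gave 0.28 in WT and -0.34 in Cebpg-/- (difference -0.62 ± 0.10, adjusted p = 0.0191, or 0.0507 without the block) and was called in 9 of 14 alternatives and not without WT replicate 1 or 3 or Cebpg-/- replicate 1 or 2 (adjusted p up to 0.0801).

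The other 7 fell in WT and rose in Cebpg-/-. Angptl4, an inhibitor of lipoprotein lipase, gave -0.42 in WT and 0.29 in Cebpg-/- (difference 0.71 ± 0.09, adjusted p = 0.00468, or 0.0507 without the block), but the mean with its second probe set, which lay under 4.65, was not called (0.32, adjusted p = 0.16). The NMDA receptor subunit gene Grin3a gave -0.25 in WT and 0.42 in Cebpg-/- (difference 0.66 ± 0.09, adjusted p = 0.0062, or 0.0531 without the block). Tnfaip2, a gene that tumour necrosis factor raises, gave -0.17 in WT and 0.24 in Cebpg-/- (difference 0.41 ± 0.07, adjusted p = 0.0237, or 0.858 without the block) and was called in 7 of 15 alternatives and not without WT replicate 1, 2 or 3 or Cebpg-/- replicate 1 or 3, nor with a random block or the 12 arrays alone (adjusted p up to 0.264). Gxylt2 gave -0.27 in WT and 0.18 in Cebpg-/- (difference 0.45 ± 0.07, adjusted p = 0.0134, or 0.488 without the block) and was called in 12 of 15 alternatives and not without WT replicate 2, nor with a random block (adjusted p up to 0.0544). Lancl3 gave -0.19 in WT and 0.57 in Cebpg-/- (difference 0.76 ± 0.06, adjusted p = 0.00115, or 0.343 without the block). The zinc finger gene Zfp248 gave -0.37 in WT and 0.51 in Cebpg-/- (difference 0.88 ± 0.10, adjusted p = 0.00271, or 0.0507 without the block), and the mean with its 3 dimmer probe sets, which gave 0.49, 0.07 and -0.30, was not called (0.28, adjusted p = 0.161). Xist gave -0.32 in WT and 0.26 in Cebpg-/- (difference 0.58 ± 0.08, adjusted p = 0.00754, or 1 without the block), between WT arrays at 5.28 to 5.83 and Cebpg-/- arrays at 11.73 to 12.15, and was called in 12 of 15 alternatives and not with a random block or the mean of its probe sets (adjusted p up to 0.929). Uty, a Y-linked gene, was also called (-0.73 ± 0.15, adjusted p = 0.0452, or 1 without the block), so 2 of the calls are genes whose level separates the genotypes' arrays by sex.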

How the results depend on the processing

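Under the 15 alternatives no called difference among the genes followed changed sign. Without the replicate block 20 genes were called lower and 11 higher in place of 99 and 90, the Cebpg-/- response counted 3013 genes in place of 4663, and the comparison of the 2 knockouts 728 in place of 1824. With the 12 WT and Cebpg-/- arrays alone, 49 genes were lower and 47 higher, and with trended robust variances 254 and 218. Leaving out 1 replicate number of 1 genotype gave 40 to 80 genes lower and 31 to 69 higher. A random block (133 and 88), no filter (77 and 66), a stricter filter (122 and 114), median centring (138 and 91), quantile normalization (119 and 99) and the mean of probe sets (80 and 85) stayed within 1.5 times the main counts. The cause of these shifts was not tested. Median centring moved the median difference of all genes by -0.022 and quantile normalization by 0.0016. Low signal limits Il7r and Akr1c14, whose WT arrays all lay under 4.65, and Clec4e in normal medium, where both genotypes lay under it. It also limits Ccl3 and Cxcl2, whose WT levels in normal medium lay under 4.65. The sex pattern cannot be told apart from the WT and Cebpg-/- genotypes, and it is mixed within Atf4-/-. A fall in the number of calls does not show that a gene responded alike in both genotypes.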
